A study of Homo sapiens with 4 samples.

Results

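The genes described here give cells an epithelial or a mesenchymal identity: keratins, junction and adhesion genes, the transcription factors of epithelial-mesenchymal transition (EMT), and matrix genes, together with the prostate secretory genes MSMB and ACPP. They were chosen by symbol from a list of 55 genes, of which 46 are among the 17902 genes of the deposited table. RNA was sequenced in LNCaP, a cell line from a lymph node metastasis of human prostate cancer, in 2 libraries of cells labelled WT (Control) and 2 of cells with raised ETV5, a transcription factor of the ETS family (ETV5_OE). The labels do not say how ETV5 was raised, whether the controls carry an empty vector, or whether the replicates are separate cultures. The names of the ETV5_OE libraries differ by a final letter only, so p-values measure a spread among libraries that may come from technical repeats. That letter, R, ends the names of ETV5_OE replicate 2 and of Control replicate 1, and its meaning is not stated. The question addressed is whether raising ETV5 moves LNCaP cells along the axis from epithelial to mesenchymal gene expression.

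Epithelial cells are held together by cadherins, tight junctions and desmosomes, and are stiffened by keratin filaments. In the prostate, luminal secretory cells carry the keratins KRT8 and KRT18, and the basal cells below them carry KRT5. In EMT, transcription factors of the SNAI, ZEB and TWIST families repress junction genes such as CDH1, and vimentin, N-cadherin and matrix proteins appear. PEA3 factors, the subgroup of ETS proteins that holds ETV5, are known for roles in branching epithelia and in tumour invasion.

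Depth was from 20639543 to 30227070 counts per library. In Control replicates 1 and 2 and then ETV5_OE replicates 1 and 2, the level of ETV5 was 0.718, 1.29, 23.9 and 21.8 CPM, so the overexpression was present in both labelled libraries (edgeR log2 fold change 4.54, SE 0.32, adjusted p = 0.00151). CPM is the count scaled to the TMM-adjusted library size, and values below are given in this library order. ETV1, another PEA3 factor, fell in the same libraries, with 371, 264, 26.00 and 31.6 CPM (a log2 fold change -3.46, SE 0.21, adjusted p = 0.00150). All 9 prostate luminal markers listed were in the table, among them KLK3, which encodes prostate-specific antigen, at 3427, 3732, 2105 and 2396 CPM. Of the 9, 5 were lower in ETV5_OE at an unadjusted p under 0.05 (3.51% of all genes tested), with none called. The keratins KRT8 and KRT18 are also among the 9 and had small positive log2 fold changes, 0.21 and 0.12. The basal keratins KRT5, KRT15 and KRT17 were not analysed here, since every gene of the table has at least 1 read in all 4 libraries.

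No member passed the threshold of an adjusted p under 0.05. The count filter kept 44 of the 46 members, leaving out ZEB1 and TGFBI, and edgeR called 0 of the 44, against 65 of 16194 genes tested (0.401%). At an unadjusted p under 0.05 there were 10 members, against 7.14% of all genes tested: 4 were higher (3.63% of all genes) and 6 lower (3.51%). The higher ones were KRT80, LAMB3, COL5A1 and FN1, and the lower ones CD24, DSG2, DSC2, SNAI2, TWIST1 and ACPP. In 22 of the 44 members the groups did not overlap in CPM, 10 higher and 12 lower, against 37.6% of all genes tested (18.8% in each direction). The 10 higher include COL5A1, SPARC and THBS1, which are set apart below as high in ETV5_OE replicate 1. COL5A1 is also among the 4 higher ones named above. The median log2 fold change was 0.07 over the 44 members and 0.0044 over all genes tested. DESeq2 called 2 members, DSC2 and LAMB3, against 1.53% of the genes to which it gave an adjusted p.

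**Figure D1:**
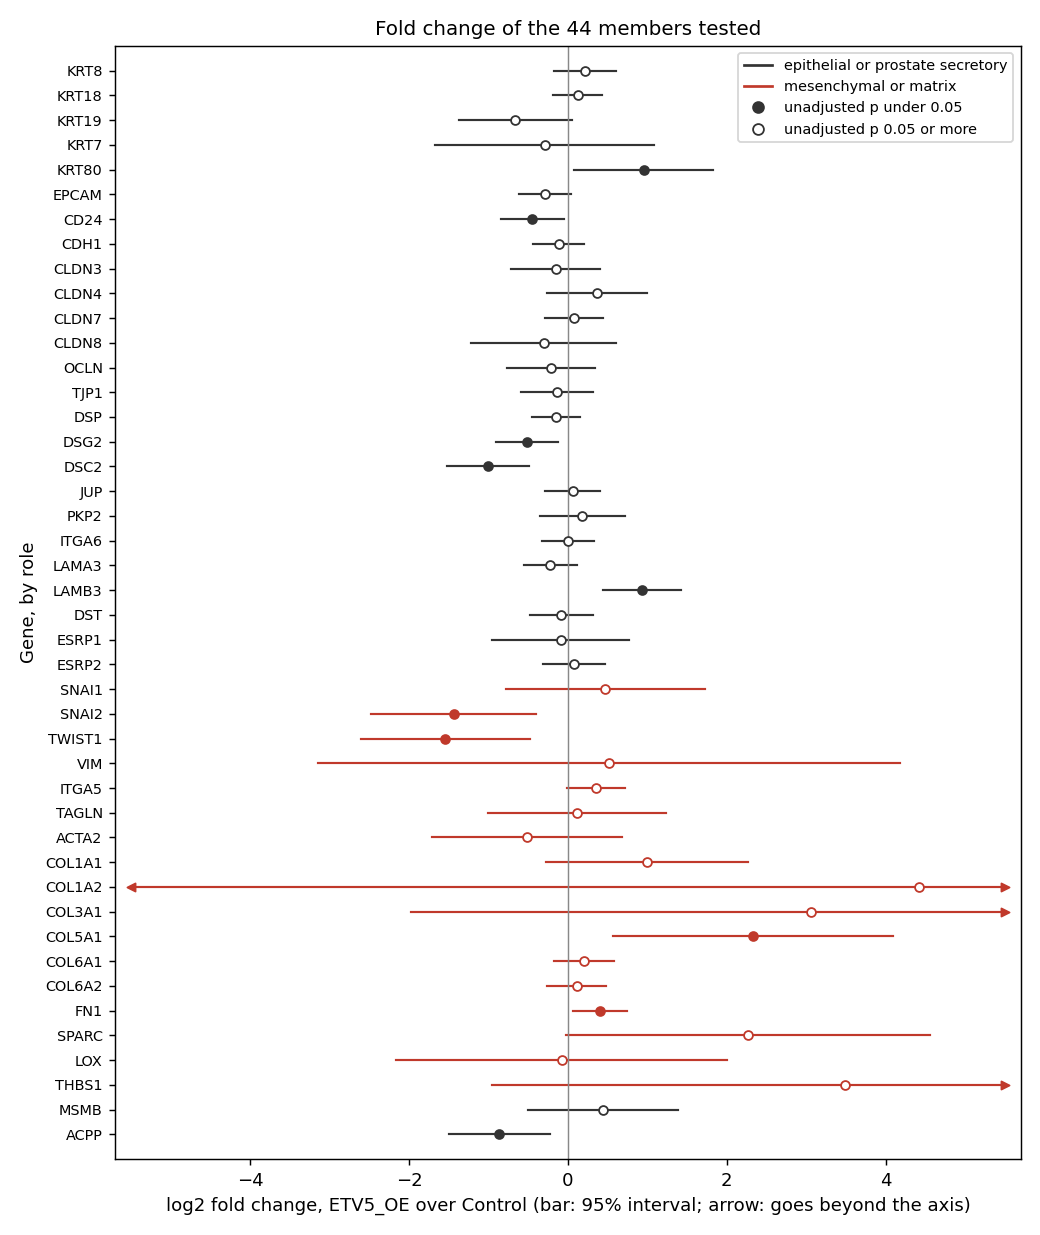
The log2 fold change of ETV5_OE over Control is plotted for each of the 44 members tested (x axis, log2 units; y axis, genes ordered by role), with the 95% interval of the edgeR fit as a bar and filled points for an unadjusted p under 0.05. Most epithelial genes lie close to 0 with short bars, whereas COL1A2, COL3A1 and THBS1 have large positive values with bars that run past 0.

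Read per transcript length, the cells had a strong epithelial profile in every library. On the scale of the deposited FPKM, which is scaled by transcript length and by depth, the 5 highest members in Control were CLDN7, KRT18, CLDN4, CDH1 and KRT8. CLDN7, a tight junction claudin, had a level of 245 ± 16.4 FPKM in Control and 250.03 ± 36.1 in ETV5_OE (SD, n = 2). The luminal keratin KRT18 had 234 ± 6.50 and 248 ± 0.124 FPKM, and its level did not differ from that of CLDN7 beyond their spread. CLDN4 followed at 207 ± 31.98 FPKM in Control, where its libraries overlapped with those of KRT18. E-cadherin, encoded by CDH1, had 161 ± 11.2 FPKM in Control and overlapped with KRT8 at 138 ± 29.8 FPKM. Next came the matrix protein fibronectin, FN1, at 96.1 ± 7.47 FPKM in Control, above every other mesenchymal member and above the epithelial adhesion gene EPCAM at 63.7 ± 7.83 FPKM. At the other end, the 6 lowest members by mean FPKM in Control were COL1A2, COL3A1, THBS1, COL5A1, TGFBI and ZEB1, the last with 0.0187 ± 0.00694 FPKM.

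The simple keratins that define luminal cells had small differences between the groups. KRT8 had 217, 294, 301 and 292 CPM. KRT18 had 337, 349, 368 and 378 CPM. The control libraries differed in KRT8 by more than the ETV5_OE libraries did, and the groups overlapped, whereas both ETV5_OE values of KRT18 lay above both controls by a small margin. The log2 fold change was 0.21 for KRT8 (SE 0.17, 95% interval -0.18 to 0.61, adjusted p = 0.884) and 0.12 for KRT18 (SE 0.13, 95% interval -0.18 to 0.43, adjusted p = 0.925). The annotated KRT8 and KRT18 loci overlap by 1006 bp on chromosome 12, and RefSeq lists 52 and 68 pseudogenes of the pair, of which 7 and 8 are in the table. How reads shared between these loci were assigned is not stated in the sources used here, so both values are uncertain in this respect. KRT19, a keratin of simple and intermediate epithelial cells, was low, at 7.44, 6.25, 3.68 and 4.97 CPM, and both ETV5_OE libraries were below both controls (log2 fold change -0.66, SE 0.31, adjusted p = 0.745). KRT80, a type II keratin found in many epithelia, was also low and went the other way, at 2.58, 2.24, 3.68 and 5.68 CPM, with both ETV5_OE libraries above both controls (log2 fold change 0.95, SE 0.38, unadjusted p = 0.0356, adjusted p = 0.644), a log2 fold change that was 0.60 without ETV5_OE replicate 2. KRT7, which lies 41228 bp from KRT80 on chromosome 12, had from 11 to 20 counts per library (log2 fold change -0.29, 95% interval -1.67 to 1.09).

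The surface and junction genes CDH1 and EPCAM differed little. CDH1 had 763, 840.1, 738 and 738 CPM, with both ETV5_OE libraries just below the controls. Its log2 fold change was -0.12 (SE 0.14, 95% interval -0.44 to 0.21, adjusted p = 0.935). EPCAM, a homophilic adhesion molecule of epithelia, had 103, 123, 91.3 and 94.3 CPM, again with both ETV5_OE libraries below both controls (log2 fold change -0.29, SE 0.14, adjusted p = 0.777). CD24, a surface glycoprotein of luminal and progenitor epithelial cells, had 31.7, 37.8, 25.1 and 25.8 CPM, and the ETV5_OE libraries lay together below the controls (log2 fold change -0.45, SE 0.17, unadjusted p = 0.0325, adjusted p = 0.618).

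Of the 4 claudins, which form the tight junction strands, none passed the test, and no difference exceeded the spread of the libraries. CLDN7 had 372, 406, 361 and 456 CPM and CLDN4 349.82, 435, 381 and 629.6 CPM, and in both genes ETV5_OE replicate 2 was the highest library and the groups overlapped. CLDN3, which lies 60725 bp from CLDN4 on chromosome 7, had 19.3, 21.2, 14.1 and 22.2 CPM, and CLDN8 had 7.37, 16.7, 9.55 and 9.77 CPM with Control replicate 2 apart from the rest. Occludin (OCLN), a transmembrane tight junction protein, and TJP1, the scaffold ZO-1 below the membrane, had log2 fold changes of -0.21 (SE 0.23) and -0.14 (SE 0.19), with overlapping groups in both. Over the 7 adherens and tight junction genes the median log2 fold change was -0.14, from -0.31 to 0.37.

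Desmosomes anchor keratin filaments at cell contacts. Of their 5 members tested, 2 (DSC2 and DSG2) were lower at an unadjusted p under 0.05 (3.51% of all genes tested), with none called. The desmosomal cadherin DSC2 (chromosome 18, 31058840 to 31102421 in GRCh38) had 37.5, 25.3, 15.2 and 16.1 CPM. The controls differed from each other, and the ETV5_OE libraries lay together below both. This gave the smallest adjusted p of the 44 members, at a log2 fold change of -1.01 (SE 0.23, 95% interval -1.52 to -0.49, 2.01-fold lower, unadjusted p = 0.00205, adjusted p = 0.193), which misses the threshold. DSC2 was called by DESeq2 (adjusted p = 0.0188), and by edgeR without Control replicate 2 (adjusted p = 0.0292, where 0.846% of all genes were called). It was not called without Control replicate 1 (log2 fold change -0.69, adjusted p = 0.258) or by limma on log2(FPKM + 1) (adjusted p = 0.718). The deposited FPKM of DSC2 were 7.10, 1.99, 1.17 and 1.21, so on the per-length scale Control replicate 1 stands further from Control replicate 2 than it does in counts. In the authors' deposited table the fold of DSC2 was -2.21 with an unadjusted p of 0.352.

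DSG2, the other desmosomal cadherin among the members and the more abundant of the pair per length, had 339, 252, 199.96 and 214 CPM. Its controls were again above both ETV5_OE libraries and spread further apart than these (log2 fold change -0.51, SE 0.17, unadjusted p = 0.0163, adjusted p = 0.498). The log2 fold change of DSG2 was -0.28 without Control replicate 1 and -0.71 without Control replicate 2. The genes of the cytoplasmic side of the desmosome had smaller log2 fold changes. Desmoplakin (DSP), which links to keratin, had 196, 211, 187 and 179 CPM (a log2 fold change -0.15, SE 0.13, adjusted p = 0.898). Plakoglobin (JUP) and plakophilin 2 (PKP2), the linker proteins between cadherin and desmoplakin, had log2 fold changes of 0.06 (SE 0.15) and 0.18 (SE 0.23), with overlapping groups. DSC1, the neighbour of DSC2 at a distance of 26814 bp and not a member, had only 2.35, 1.77, 0.717 and 0.710 CPM, with the ETV5_OE libraries below the controls (log2 fold change -1.53, SE 0.50, unadjusted p = 0.0151, adjusted p = 0.481).

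The hemidesmosome and laminin genes, which attach epithelium to the basement membrane, held the member with the next smallest adjusted p. LAMB3, a beta chain of the laminin trimer below hemidesmosomes (chromosome 1, 209614870 to 209652425), had 9.52, 12.4, 21.2 and 20.6 CPM. Both ETV5_OE libraries lay close together above both controls. The log2 fold change was 0.93 (SE 0.21, 95% interval 0.44 to 1.43, 1.91-fold higher, unadjusted p = 0.00230, adjusted p = 0.210), and DESeq2 called the gene (adjusted p = 0.0265). LAMA3, which encodes the alpha chain of the same trimer, had 285, 243, 238 and 216 CPM, with both ETV5_OE libraries below both controls (log2 fold change -0.22, SE 0.15, adjusted p = 0.853). The laminin receptor subunit ITGA6 had overlapping groups (95% interval of the log2 fold change -0.33 to 0.32), as had the plakin linker dystonin (DST; log2 fold change -0.09, 95% interval -0.48 to 0.31). The partner integrin ITGB4 was not analysed here.

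RefSeq promoter sequences (GRCh38.p14) matched 27 of the 46 members. They are shown for DSC2 and LAMB3, the members with the smallest adjusted p, and for DSG2, the other desmosomal cadherin among the members. Each run holds the 250 bases before the annotated start, read 5′ to 3′ on the gene's strand, and capitals mark the E2 box CACCTG or its reverse complement CAGGTG, the 6-base motif bound by SNAI and ZEB factors. The regions are chr18:31102422-31102671 on the minus strand for DSC2, chr1:209652426-209652675 on the minus strand for LAMB3 and chr18:31497927-31498176 on the plus strand for DSG2.
DSC2: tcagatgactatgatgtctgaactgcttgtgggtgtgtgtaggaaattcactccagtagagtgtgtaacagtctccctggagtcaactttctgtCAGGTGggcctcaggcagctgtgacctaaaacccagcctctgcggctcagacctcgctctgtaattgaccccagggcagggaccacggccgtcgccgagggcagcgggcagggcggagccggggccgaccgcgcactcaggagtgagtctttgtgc
LAMB3: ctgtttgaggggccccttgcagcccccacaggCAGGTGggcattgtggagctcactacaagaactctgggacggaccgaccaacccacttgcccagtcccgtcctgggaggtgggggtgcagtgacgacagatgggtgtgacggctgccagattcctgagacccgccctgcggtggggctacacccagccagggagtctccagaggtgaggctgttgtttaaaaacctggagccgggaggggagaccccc
DSG2: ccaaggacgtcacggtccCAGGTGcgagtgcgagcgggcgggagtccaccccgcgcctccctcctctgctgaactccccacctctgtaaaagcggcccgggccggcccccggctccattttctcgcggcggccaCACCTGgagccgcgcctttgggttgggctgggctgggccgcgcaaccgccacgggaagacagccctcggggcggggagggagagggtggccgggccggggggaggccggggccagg
DSC2 and LAMB3 hold 1 match each and DSG2 holds 2. The E2 box was found in 9 of the 27 member promoters (DSC2, DSG2, DSP, ITGA6, LAMA3, LAMB3, OCLN, TJP1 and ZEB1) and in 17.5% of the 35116 RefSeq promoters of the same length. The ETS motif CCGGAA, or TTCCGG on the other strand, was in none of the 3 printed runs, in 2 of the 27 member promoters (KRT8 and SPARC) and in 14.5% of all promoters. A match to the E2 box and a match to the ETS motif cannot share a base. The matches are a description of sequence only: genes with an E2 box include DSC2 and DSG2, which were lower in ETV5_OE, LAMB3, which was higher, and TJP1 and ITGA6, whose groups overlapped.

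The epithelial splicing regulators, RNA-binding proteins that set epithelial isoforms of adhesion and receptor genes, had overlapping groups. ESRP1 had 160.2, 95.3, 144 and 95.6 CPM and ESRP2 39.1, 45.7, 40.9 and 48.7 CPM. In both genes the replicates of each group lay further apart than the group means, with replicate 1 above replicate 2 for ESRP1 in each group. The log2 fold changes were -0.09 (SE 0.33, adjusted p = 0.980) and 0.08 (SE 0.17, adjusted p = 0.963), and each changed sign when single libraries were left out.

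**Figure D2:**
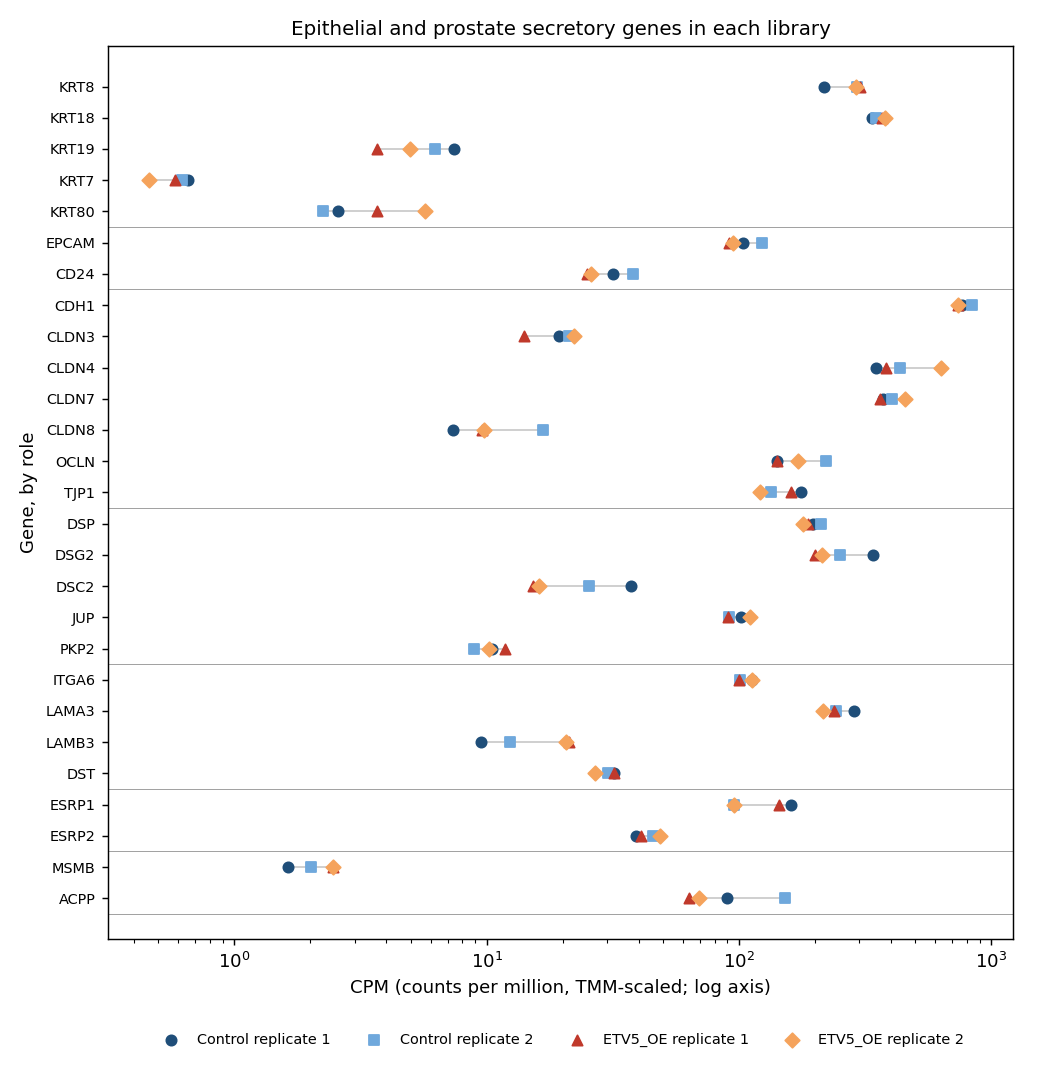
CPM in each of the 4 libraries (x axis, log scale) is plotted for the epithelial and prostate secretory members (y axis, grouped by role), with a grey line from the lowest to the highest library. The ETV5_OE points lie together below both controls for DSC2 and DSG2 and above both for LAMB3, while CDH1, KRT18 and CLDN7 sit in narrow ranges.

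The prostate secretory genes had differences of opposite sign. ACPP, which encodes prostatic acid phosphatase, had 89.6, 153, 63.3 and 69.4 CPM. The controls were far apart, with Control replicate 2 the highest library, and both ETV5_OE libraries were below them (log2 fold change -0.87, SE 0.26, unadjusted p = 0.0158, adjusted p = 0.491). Without Control replicate 1 edgeR called it, at a log2 fold change of -1.20 (adjusted p = 0.00951, where 1.47% of all genes were called). Without Control replicate 2 its log2 fold change was -0.43. MSMB, which encodes the seminal plasma protein beta-microseminoprotein, was low at 1.63, 2.004, 2.47 and 2.46 CPM (log2 fold change 0.44, 95% interval -0.50 to 1.39, adjusted p = 0.904).

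The EMT transcription factors were expressed at low levels, and those with the smallest p were lower in ETV5_OE. SNAI2, which encodes Slug, had 79 and 60 counts in the controls and 26 and 20 in the ETV5_OE libraries, or 2.58, 2.86, 1.17 and 0.835 CPM. TWIST1 had 145 and 113 counts against 23 and 58, or 4.73, 5.39, 1.03 and 2.42 CPM. In both genes each ETV5_OE library was below each control. The log2 fold changes were -1.44 (SE 0.45, 95% interval -2.48 to -0.40, unadjusted p = 0.0127, adjusted p = 0.449) for SNAI2 and -1.54 (SE 0.46, 95% interval -2.60 to -0.48, unadjusted p = 0.00989, adjusted p = 0.410) for TWIST1. SNAI1, which encodes Snail, had 1.66, 0.811, 1.34 and 2.13 CPM with overlapping groups. ZEB1 had 6, 2, 22 and 2 counts, with ETV5_OE replicate 1 the highest, and ZEB2 was not analysed here. SNAI2 was the 1 member with an unadjusted p under 0.05 in the authors' deposited table (fold -1.53, p = 0.0273), where 3.06% of all genes had such a value.

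Several mesenchymal genes were high in 1 library only, which was ETV5_OE replicate 1, and these are kept apart from group differences. A gene was counted as such when its highest library exceeded 4 times the next and held at least 10 counts. This held for 7 members, COL1A2, COL3A1, COL5A1, TGFBI, THBS1, SPARC and ZEB1, in each case with ETV5_OE replicate 1 the highest. Over the 17902 genes of the table it held for 26 genes in that library (0.145%), and for 5, 11 and 3 genes in Control replicates 1 and 2 and ETV5_OE replicate 2. Of the 17 mesenchymal members tested, 13 had their highest CPM in ETV5_OE replicate 1 (15 of the 19 in the table). This compares with 3 of 25 epithelial members and 25.6% of all genes tested. The 15 include the 7 members picked above because that library was highest.

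COL1A2, the alpha 2 chain of type I collagen, had 10 and 36 counts in the controls, 923 in ETV5_OE replicate 1 and 2 in ETV5_OE replicate 2. In CPM this was 0.326, 1.72, 41.4 and 0.0835, so the highest and the lowest library were the ETV5_OE pair. COL3A1, the chain of type III collagen, had 0.620, 1.38, 15.5 and 0.960 CPM, and COL5A1, a chain of type V collagen, 0.652, 0.620, 5.29 and 1.17 CPM. COL5A1 had an unadjusted p of 0.0167 (log2 fold change 2.33, SE 0.75, adjusted p = 0.501), but its log2 fold change was 0.87 without ETV5_OE replicate 1 and 3.04 without ETV5_OE replicate 2. COL1A1, the alpha 1 chain of type I collagen, was more abundant and had 9.52, 9.02, 27.03 and 10.1 CPM. Here ETV5_OE replicate 2 stood at the level of the controls, and the log2 fold change of 0.998 (SE 0.49, adjusted p = 0.792) became 0.11 without ETV5_OE replicate 1.

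THBS1, the matrix glycoprotein thrombospondin 1, had 23, 13, 324 and 27 counts, or 0.750, 0.620, 14.5 and 1.13 CPM. SPARC, a collagen-binding glycoprotein, had 1.01, 0.429, 6.05 and 1.09 CPM, and TGFBI, a matrix protein induced by TGF-beta, had 3, 6, 102 and 8 counts. Vimentin (VIM), the intermediate filament of mesenchymal cells, had 7.60, 4.82, 16.1 and 1.75 CPM. ETV5_OE replicate 1 was the highest of the libraries and ETV5_OE replicate 2 the lowest, with the controls between them. Its log2 fold change was 0.51 with all libraries (SE 1.19, 95% interval -3.15 to 4.18), -1.83 without ETV5_OE replicate 1 and 1.36 without ETV5_OE replicate 2. LOX, which crosslinks collagen, showed the same order of the ETV5_OE pair at 1.40, 0.620, 1.70 and 0.250 CPM.

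**Figure D3:**
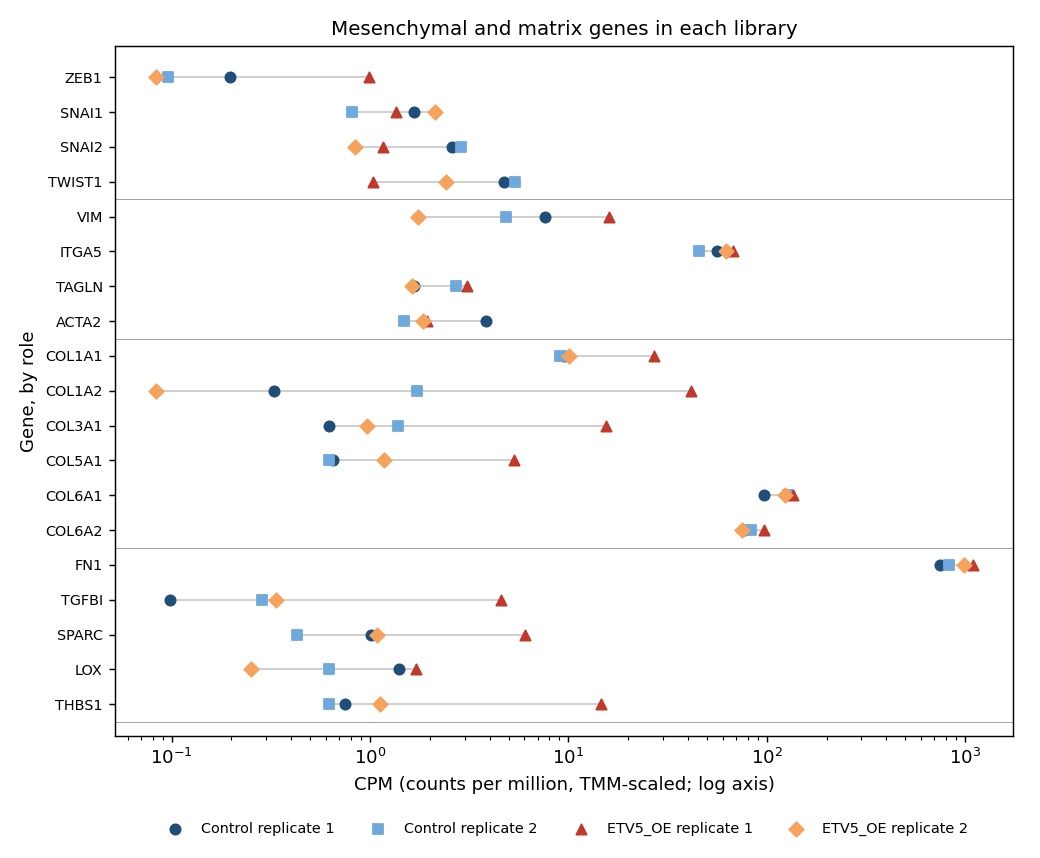
CPM in each of the 4 libraries (x axis, log scale) is plotted for the 19 mesenchymal and matrix members (y axis, grouped by role), with a grey line from the lowest to the highest library. ETV5_OE replicate 1 (triangles) stands far to the right of the other libraries for COL1A2, COL3A1, THBS1 and TGFBI, and SNAI2 and TWIST1 have both ETV5_OE points to the left of the controls.

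The fibroblast markers in the table were highest in the same library, but most of them are collagens already given above. Of 10 listed, COL1A1, COL1A2, COL3A1 and PDGFRB were in the table, the first 3 of them also members, and DCN, LUM, PDGFRA, FAP, THY1 and POSTN were not analysed here. The summed level of the 4 comes mainly from the 3 collagens, so it is not a separate result. It was 10.99 and 12.6 CPM in the controls, 86.0 CPM in ETV5_OE replicate 1 and 11.7 CPM in ETV5_OE replicate 2. PDGFRB, a growth factor receptor of mesenchymal cells and the 1 of these that is not a member, had 0.522, 0.477, 2.11 and 0.626 CPM. The part of fibroblast RNA in the collagen values was not tested. Of the endothelial markers 1 of 6 was in the table (VWF, 13.96, 4.01, 7.98 and 5.43 CPM), and of the immune markers 1 of 7 (CD68, 5.71, 8.45, 9.10 and 16.9 CPM). Neither was highest in ETV5_OE replicate 1. In bulk libraries, a change in the share of cells of a type and a change in RNA per cell cannot be told apart.

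Leaving out ETV5_OE replicate 1 changed the split of the mesenchymal members between higher and lower. That library had the highest CPM in 13 of the 17 tested, so lower log2 fold changes without it were built into its choice. Each fit without an ETV5_OE library also rests on 1 library in that group, so the splits are a description only. With all libraries 13 of the 17 tested had a positive log2 fold change and 4 a negative one, with a median of 0.40. Without that library 8 were positive and 9 negative, with a median of -0.04, and with ETV5_OE replicate 2 left out there were 14 positive ones and a median of 0.50. For the 25 epithelial members, all tested, the median was -0.12 with all libraries, -0.12 without ETV5_OE replicate 1 and -0.11 without ETV5_OE replicate 2.

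**Figure D4:**
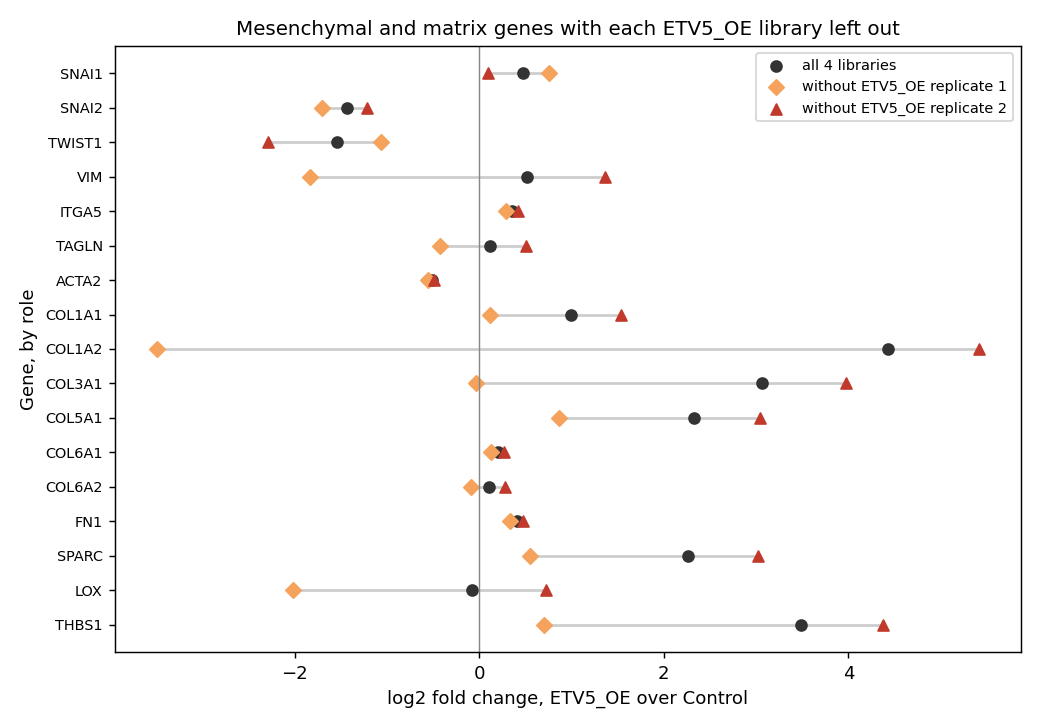
The edgeR log2 fold change of ETV5_OE over Control (x axis) is plotted for the 17 mesenchymal and matrix members tested (y axis) with all 4 libraries and with each ETV5_OE library left out. COL1A2 runs from -3.50 to 5.42 and VIM from -1.83 to 1.36, whereas FN1, ITGA5, SNAI2 and TWIST1 keep their sign. ACTA2, COL1A1, COL5A1, COL6A1, SNAI1, SPARC and THBS1 also keep theirs. Without ETV5_OE replicate 1, COL5A1, SPARC and THBS1 have smaller positive values of 0.87, 0.55 and 0.70.

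FN1 and the abundant matrix and integrin genes did not meet the rule for single-library signal. ETV5_OE replicate 1 was still the highest library in FN1, ITGA5, COL6A1 and COL6A2. FN1 (chromosome 2, 215360865 to 215436068) had 744, 826, 1089 and 987 CPM. Both ETV5_OE libraries were above both controls, at a log2 fold change of 0.40 (SE 0.15, 95% interval 0.07 to 0.74, 1.32-fold higher, unadjusted p = 0.0246, adjusted p = 0.581). It was 0.33 without ETV5_OE replicate 1 and 0.47 without ETV5_OE replicate 2. ITGA5, the alpha subunit of the fibronectin receptor, had 55.8, 45.7, 67.9 and 62.1 CPM, also with both ETV5_OE libraries above both controls (log2 fold change 0.36, SE 0.16, adjusted p = 0.715). The type VI collagen chains COL6A1 and COL6A2, which lie 93063 bp apart on chromosome 21, had 97.3, 127, 135 and 123 and 76.5, 82.8, 97.00 and 74.9 CPM, with overlapping groups. The log2 fold change of COL6A2 was 0.11 with all libraries, -0.092 without ETV5_OE replicate 1 and 0.28 without ETV5_OE replicate 2. The smooth muscle genes TAGLN and ACTA2 stayed under 5 CPM in every library, with log2 fold changes of 0.11 (SE 0.49) and -0.51 (SE 0.52). N-cadherin (CDH2), the receptor kinase AXL and CTGF were not analysed here. CYR61, a YAP target, is in the table under its present symbol CCN1, which the rule did not match; singled out later, it had 1.92, 1.19, 2.20 and 1.29 CPM with overlapping groups.

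Among 7 further lists of genes from the same programmes, 0 of 96 genes tested were called by edgeR, while 10 were higher and 5 lower at an unadjusted p under 0.05 (3.63% and 3.51% of all genes tested), and the median log2 fold change was 0.02. Of 20 other junction and polarity genes tested, 1 had an unadjusted p under 0.05 (7.14% of all genes tested). It was the polarity scaffold MPP5 (PALS1), at 111, 122, 96.1 and 87.2 CPM. Next in this list was the tight junction gene MARVELD3 (log2 fold change -0.43, SE 0.22). Of 8 other desmosome and hemidesmosome genes, PKP3, a plakophilin, was higher at 54.7, 55.2, 68.9 and 70.8 CPM (unadjusted p = 0.0348) and DSC1 lower as given above.

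The basement membrane and integrin list had a median log2 fold change of 0.12 over 11 genes, with 3 higher at an unadjusted p under 0.05 (3.63% of all genes tested) and none lower. ITGA2, the collagen-binding integrin alpha 2, had 16.6, 23.4, 41.8 and 42.7 CPM, and the ETV5_OE libraries lay close together above the controls (log2 fold change 1.08, SE 0.20, unadjusted p = 0.000695, adjusted p = 0.106). The laminin beta 1 chain LAMB1 had 4.92, 4.68, 9.82 and 8.98 CPM (log2 fold change 0.97, SE 0.26, adjusted p = 0.343). Both genes thus had the direction of LAMB3, without passing the threshold.

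The median log2 fold change of 18 epithelial regulators was -0.0073. Of these, 2 were higher and 1 lower at an unadjusted p under 0.05 (3.63% and 3.51% of all genes tested). The membrane serine protease ST14 (matriptase) and its inhibitor SPINT1 were higher, ST14 at 91.6, 98.1, 119 and 119.9 CPM and SPINT1 at 101, 95.96, 124 and 124 CPM (log2 fold change 0.33 for each, unadjusted p = 0.0352 and 0.0337). The transcription factor KLF4 was lower, at 18.3, 23.4, 15.9 and 13.5 CPM (log2 fold change -0.50, SE 0.21, unadjusted p = 0.0458). Of 14 TGF-beta pathway genes, the 2 with the smallest p were the BMP- and TGF-beta-responsive inhibitors of differentiation ID3, at 15.4, 19.7, 36.8 and 29.1 CPM (log2 fold change 0.91, SE 0.21, adjusted p = 0.218), and ID1, at 6.10, 13.5, 22.9 and 22.1 CPM (adjusted p = 0.503). Of 13 YAP and TEAD genes, the coactivator YAP1 had 97.3, 88.9, 129 and 145 CPM (log2 fold change 0.56, SE 0.14, adjusted p = 0.271) and the angiomotin gene AMOTL2 a log2 fold change of 0.76 (SE 0.45). Over the 96 genes of these lists, the groups did not overlap in 24 that were higher and 17 that were lower, against 18.8% of all genes tested in each direction.

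Of 12 other mesenchymal genes tested, the type V collagen chain COL5A2, which lies 19151 bp from COL3A1 on chromosome 2, had 3.82, 4.53, 16.8 and 8.39 CPM (log2 fold change 1.60, SE 0.37, adjusted p = 0.232). ETV5_OE replicate 1 was the highest here too, and ETV5_OE replicate 2 was also above both controls, unlike in COL3A1. Caldesmon (CALD1), an actin-binding protein, had 279, 353, 199 and 207 CPM, with both ETV5_OE libraries below both controls (log2 fold change -0.64, SE 0.16, adjusted p = 0.258). The values of COL6A3, another type VI collagen chain singled out once they were known, were 0.489, 1.81, 18.96 and 0.209 CPM. The order of libraries was that of COL1A2 and also that of COL6A2, in which the spread was much narrower.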

How the data were processed

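RNA was measured in 4 LNCaP libraries, 2 Control and 2 ETV5_OE. The tools HISAT2, StringTie and Trimmomatic and the build hg38 are named, per the submitters' processing notes, with no versions or roles; whether counting used strand is not stated there. Per the file headers, the authors deposited raw read counts and FPKM per gene, group means on a log2 scale, a signed linear fold written as a score (control over ETV5_OE negative) and unadjusted p-values of a test that is not named. The counts went into edgeR 4.0.16 under R 4.3.3 (default expression filter with minimum count 10, TMM scaling, robust quasi-likelihood F test, Benjamini-Hochberg adjustment over 16194 genes, threshold 0.05). The procedure was tested on simulated data with large changes only. The simulation did not cover small changes, changed genes of low count or a single deviating library. SEs were taken from the fold change and F statistic, and 95% intervals from the t distribution with the fit's degrees of freedom. Where a library was left out, the genes of the filter with all libraries were kept, and the lone sample was assumed to vary like the other group. Alternatives were DESeq2 1.42.0, limma 3.58.1 on log2(FPKM + 1) where 2 libraries reached FPKM 1, RLE scaling, total counts only, no filter, and the replicate number as a block. Gene coordinates are RefSeq GRCh38.p14, matched by gene ID for all 46 members. The members and lists were chosen with earlier results of these data known. Genes given in every library were members with an unadjusted p under 0.05, members high in a single library and a set list of defining markers; of the further lists, up to 2 genes with the smallest p were named. Exceptions are marked in the text.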

Additional observations from a re-analysis of the deposited data

How the results depend on the processing

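The count of 0 members called by edgeR was the same with RLE scaling, total counts only, no filter and the replicate block, and with limma on log2(FPKM + 1). It was 2 with DESeq2 and from 0 to 1 when single libraries were left out. Over all genes, 65 calls became 232 with DESeq2, 13 with limma on log2(FPKM + 1), and from 0 to 238 with single libraries left out; the cause was not tested. With ETV5_OE replicate 1 or 2 left out edgeR called 0 genes, with 689 and 931 at an unadjusted p under 0.05, so no member could be called there. The replicate numbers do not pair the samples by the labels, and the deviations of replicate 1 of both groups correlated at 0.019 over 16194 genes; with the replicate block 55 genes were called and VIM had a log2 fold change of -0.071. With single libraries left out, 18 of the 44 members tested changed sign in at least 1 fit. Their log2 fold changes ran from -1.03 to 0.35 for ACTA2, -0.52 to 0.13 for CLDN3, -0.046 to 0.68 for CLDN4, -0.11 to 0.23 for CLDN7, -0.79 to 0.39 for CLDN8, -3.50 to 5.97 for COL1A2, -0.040 to 3.97 for COL3A1, -0.092 to 0.28 for COL6A2, -0.21 to 0.025 for DST, -0.42 to 0.33 for ESRP1, -0.056 to 0.20 for ESRP2, -0.094 to 0.080 for ITGA6, -0.090 to 0.19 for JUP, -2.02 to 0.72 for LOX, -0.50 to 0.15 for OCLN, -0.42 to 0.50 for TAGLN, -0.36 to 0.075 for TJP1 and -1.83 to 1.36 for VIM. The other 26 members tested kept their sign in every alternative that tested them. The median log2 fold change over all genes was 0.0044 with TMM, 0.00059 with RLE and -0.039 with total counts only. KRT7, LOX, SNAI1, TGFBI, ZEB1, MSMB, TAGLN, ACTA2, SPARC, COL1A2, COL3A1, COL5A1 and THBS1 had under 60 counts in most libraries. Low counts limit what can be read from these genes, and the size of difference that could be detected was not tested. In COL1A2, COL3A1 and THBS1 the ETV5_OE libraries also lay far apart, at 923 and 2, 345 and 23, and 324 and 27 counts.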
